A study of Mus musculus with 2 samples.

Results

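The neutrophil granule genes followed here are 10 genes that encode proteins of the neutrophil granules, chosen by name and grouped by the stage of maturation at which neutrophils transcribe them. The primary (azurophil) genes are *Mpo*, *Elane*, *Prtn3* and *Ctsg*, the secondary (specific) genes *Camp*, *Ngp*, *Ltf* and *Lcn2*, and the tertiary (gelatinase) genes *Mmp8* and *Mmp9*. All 10 were found among the 27998 genes counted, each in 1 row. They were counted in CD45+ leukocytes sorted by flow cytometry from the brains of untreated C57Bl/6 mice at p21, after perfusion and removal of the meninges. The WT group was galc+/+ littermates, and the twi group was galc-/- mice, the twitcher model of globoid cell leukodystrophy, which carry an inherited loss of the lysosomal enzyme galactosylceramidase. Cells of 2 to 3 mice per genotype were loaded together as 1 library (10x Genomics 3′ v2 chemistry), and each captured transcript was tagged with a unique molecular identifier (UMI). With 1 library per genotype there was no replicate error and no test was made, so every interval is a 95% interval that covers counting error only.

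Granule proteins are made in a fixed order as a neutrophil matures in the bone marrow. Promyelocytes transcribe the primary genes for serine proteases and myeloperoxidase, myelocytes and metamyelocytes the secondary genes for antimicrobial and iron- or siderophore-binding proteins, and band and segmented cells the tertiary genes for matrix metalloproteases. A mature neutrophil in blood or tissue carries all of these proteins in its granules but has shut off most of the primary and secondary genes, so the transcripts report the stage of a cell and not its protein content. C/EBPε is the transcription factor best known for switching on secondary granule genes, and PU.1 acts on primary granule genes in promyelocytes.

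*Prtn3* (chr10:79874476-79883174 in GRCm38) and *Elane* (chr10:79886247-79888215) are neighbours, 3073 bases apart, while *Camp*, *Ngp* and *Ltf* lie on chromosome 9, with gaps of 570 kb and 596 kb. All 10 are protein-coding genes in the annotation. The 250 bases before the RefSeq start (GRCm38.p6) were searched for 9 members. *Mmp9* had no entry. The letters AGGAAGT (or ACTTCCT on the other strand), a form of the PU.1 motif, were in 4 of 4 primary, 0 of 4 secondary and 1 of 1 tertiary windows, against 7.69% of all 32851 promoters. The letters TTNNGNAA (or TTNCNNAA), a form of the C/EBP motif, were in 0 of 4 primary, 3 of 4 secondary and 1 of 1 tertiary windows, against 36.8% of all promoters. *Camp* was the secondary gene without C/EBP letters and held neither motif. With so few windows per stage, these shares describe the windows only. The stretches below are the parts of these windows that also lie before the annotated gene. They are given for a pair of primary genes, a pair of secondary genes and the tertiary gene, because these windows differed in which motif they held. *Ngp* and *Ltf* were the secondary genes with the most C/EBP matches. The capitals mark the matches to either motif, which are descriptions of the letters and not of binding.
*Elane*, chr10:79886062-79886246, plus strand: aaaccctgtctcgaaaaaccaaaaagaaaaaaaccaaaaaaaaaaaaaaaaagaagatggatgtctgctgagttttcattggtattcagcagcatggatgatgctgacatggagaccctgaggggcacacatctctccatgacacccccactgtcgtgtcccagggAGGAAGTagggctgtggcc
*Ctsg*, chr14:56102575-56102824, minus strand: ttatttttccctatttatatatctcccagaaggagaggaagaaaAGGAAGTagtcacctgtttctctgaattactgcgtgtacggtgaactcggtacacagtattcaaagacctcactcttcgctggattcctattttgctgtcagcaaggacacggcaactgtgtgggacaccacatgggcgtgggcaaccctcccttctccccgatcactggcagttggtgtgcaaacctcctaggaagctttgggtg
*Ngp*, chr9:110419558-110419746, plus strand: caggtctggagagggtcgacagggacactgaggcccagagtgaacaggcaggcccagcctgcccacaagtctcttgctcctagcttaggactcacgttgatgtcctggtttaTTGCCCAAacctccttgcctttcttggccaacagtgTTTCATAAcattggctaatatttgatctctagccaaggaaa
*Ltf*, chr9:111019042-111019270, plus strand: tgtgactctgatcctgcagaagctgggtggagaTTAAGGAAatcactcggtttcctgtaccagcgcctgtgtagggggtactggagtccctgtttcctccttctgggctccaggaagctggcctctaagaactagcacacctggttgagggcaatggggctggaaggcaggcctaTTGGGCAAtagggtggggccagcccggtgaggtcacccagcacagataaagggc
*Mmp8*, chr9:7558179-7558428, plus strand: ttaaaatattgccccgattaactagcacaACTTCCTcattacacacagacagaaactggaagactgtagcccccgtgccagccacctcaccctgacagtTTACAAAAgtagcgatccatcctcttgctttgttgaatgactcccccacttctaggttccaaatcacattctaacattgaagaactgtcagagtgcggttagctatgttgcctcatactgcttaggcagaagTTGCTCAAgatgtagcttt
In *Elane* the PU.1 letters began 84 bases before the start, and in *Ctsg* 206 bases before it. In *Ngp* C/EBP letters began 138, 102 and 11 bases before the start, the last of them outside the stretch shown, and in *Ltf* 217 and 75 bases before it. *Mmp8* held C/EBP letters 151 and 19 bases and PU.1 letters 221 bases before its start.

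In WT, 1278 barcodes carried 3749714 UMIs (median per barcode 2216), and in twi 1220 barcodes carried 4807539 UMIs (median 3149.5). No barcode was shared. Removing barcodes with over 15% mitochondrial UMIs left 1271 WT and 1207 twi cells. *Galc* had 4 and 8 UMIs, which checks nothing about the genotype, since a 3′ count does not read the mutation. UMIs of *Xist*, the transcript of the inactive X chromosome, were absent from 1271 WT cells (at most 0.236% by a count of 0) and seen in 47.6% of twi cells and in 13.4% of twi neutrophil-like cells, so the sex of the pools cannot be fully told apart from genotype. Cells were clustered without the 10 genes, and clusters were named from markers. A total of 231 WT cells (18.2%, interval 16.1 to 20.4) and 67 twi cells (5.55%, interval 4.33 to 6.996) were neutrophil-like, a ratio of shares of 0.305 (interval 0.235 to 0.396). The 17 neutrophil markers, from which they were named, summed in them to 365570 and 349964 UMIs per 1000000 UMIs of the group (CPM). All 17 were detected in both libraries, but also in twi monocyte-like cells, at 3072 CPM. *Ptprc*, the gene of CD45, was seen in 148 of 231 WT and 52 of 67 twi neutrophil-like cells. In this sort, fewer neutrophils per brain and more of the other leukocytes cannot be told apart.

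Neutrophil-like cells of both libraries carried secondary and tertiary granule transcripts in abundance and almost no primary ones. Primary transcripts were instead concentrated in a few progenitor-like and monocyte-like cells, nearly all of them from the WT library. Over all cells of a library, the 4 primary genes summed to 3026 UMIs in WT and 186 in twi, or 808.8 and 38.82 CPM, a ratio of twi over WT of 0.048 (interval 0.0412 to 0.0557). The secondary genes summed to 60297 and 18066 UMIs, a ratio of 0.234, and the tertiary genes to 2574 and 789 UMIs, a ratio of 0.239. Of the secondary UMIs, 98.1% in WT and 97.6% in twi were in neutrophil-like cells, and of the tertiary UMIs 95.1% and 89.99%. Of the primary UMIs, 0.925% and 0% were. Counts of different genes in a 3′ assay do not scale with transcript length, but capture differs between genes, so levels are compared between groups for each gene.

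**Figure D1:**
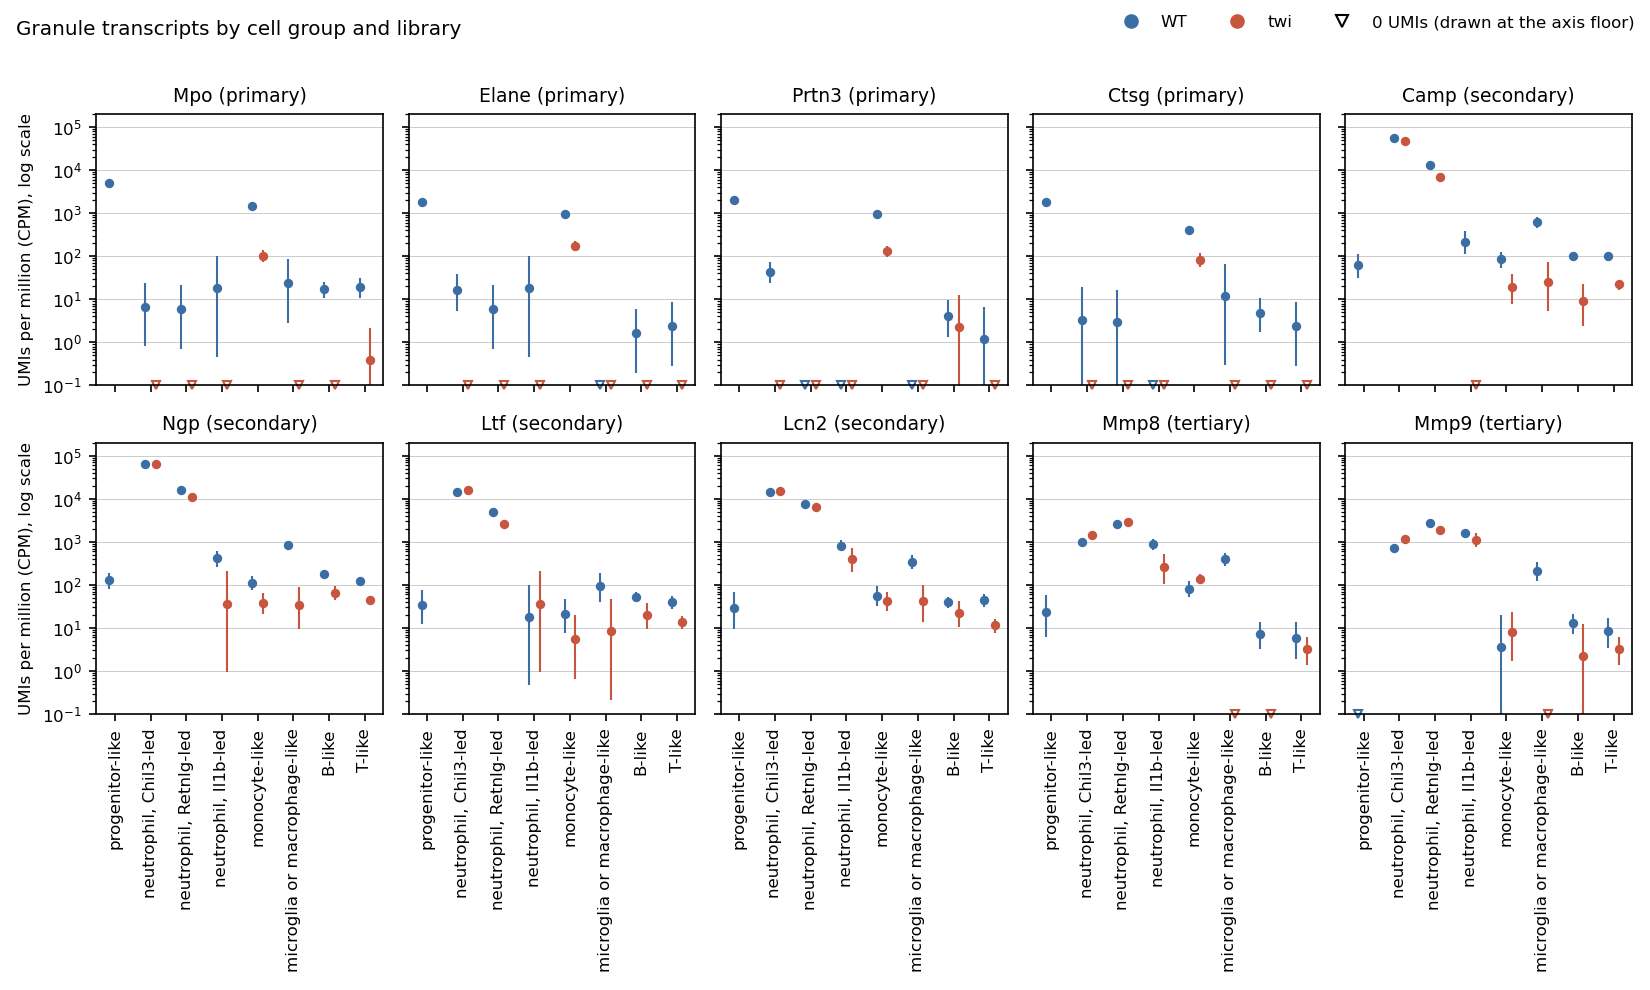
Level of each granule gene (y axis, CPM on a log scale) by cell group (x axis) in the WT (blue) and twi (red) libraries, with exact Poisson intervals that cover counting error only. Primary genes peak in progenitor-like and monocyte-like cells, secondary genes in the Chil3-led neutrophil cluster (151404 CPM summed in WT), and tertiary genes in the Retnlg-led cluster (5326 CPM summed in WT).

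The primary granule genes were at the edge of detection in neutrophil-like cells. *Prtn3*, the gene of proteinase 3, had 13 UMIs in WT, *Elane*, the gene of neutrophil elastase, had 8, *Mpo*, the gene of myeloperoxidase, had 5, and *Ctsg*, the gene of cathepsin G, had 2. None had a UMI in twi neutrophil-like cells. The sum was 28 UMIs, or 40.64 CPM, in WT and 0 UMIs in twi, a ratio of twi over WT with an interval from 0 to 0.450. Against a floor of 3 counts over the twi group, the WT level was 2.92-fold higher. In twi, a count of 0 in 67 cells is compatible with up to 4.48% of cells with a primary UMI, taken as 3 over the number of cells. The Clopper-Pearson interval reached 5.36%. B-like cells, which should lack these transcripts as they make no such granules, had 27.46 CPM in WT and 2.25 CPM (1 UMI) in twi. The part of this background in the difference between libraries was not tested. In all, 3 WT neutrophil-like cells stood above this background, with 7, 6 and 3 primary UMIs, of *Prtn3* and *Elane*. They carried 2183, 2280 and 2755 secondary UMIs and were in the cluster with the highest secondary level.

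Over all cells, 109 had a primary UMI and 84 of them had a single one. A set of 10 cells with 10 or more held 3072 of the 3212 primary UMIs, or 95.6%. This limit was set after the values were seen, and the lowest cell inside it had 13 UMIs and the highest outside 7. Of these cells, 9 were WT (0.708% of WT cells, interval 0.324 to 1.34) and 1 was twi (0.0829%, interval 0.0021 to 0.461). By class, which follows the cluster and not the single cell, 5 were progenitor-like, 5 were monocyte-like and 0 were neutrophil-like. The progenitor-like cluster had 8 cells, all WT, led by *Cpa3*, a mast cell and basophil gene, *Cd34*, a stem and progenitor cell gene, and *Ms4a3*, a gene of granulocyte and monocyte progenitors. *Kit*, *Myb* and *Adgrg1* were also among its marker genes.

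These 10 cells were deep, from 7244 to 40399 UMIs each. In the cell with the most primary UMIs, a WT progenitor-like cell of 38432 UMIs, *Mpo* had 352, *Elane* 215, *Prtn3* 139 and *Ctsg* 116 UMIs. The only such twi cell, monocyte-like with 13475 UMIs, had 36, 65, 40 and 28 UMIs of the same genes. All 4 genes were seen together in 8 of the 10 cells, and *Ms4a3* in 6. The monocyte-like cells among them differed. Those with 511, 465 and 169 primary UMIs, the last from twi, had 14, 7 and 3 UMIs of *Ms4a3*. They had 0 of the monocyte marker *Fn1* but 105, 87 and 74 of *Ly6c2*, another such marker. Those with 60 and 13 primary UMIs had 0 of *Ms4a3*, 10 and 5 of *Fn1* and 76 and 40 of *Ly6c2*. One WT progenitor-like cell had 157 primary UMIs and 0 of *Elane*, so the 4 genes were not in 1 fixed proportion. Secondary UMIs in these cells were few, from 1 to 10 per cell or 243.1 CPM, below the 374.7 CPM of WT B-like cells, and tertiary UMIs came to 7 in all. As a class, WT progenitor-like cells had 1864 primary UMIs, or 10725 CPM. Monocyte-like cells had 3763 CPM in WT (1065 UMIs, 44 cells) and 494 CPM in twi (183 UMIs, 62 cells). Only 11 of the WT and 8 of the twi monocyte-like cells had a primary UMI, and the top cells held 511 and 169 UMIs.

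The ratio over all cells thus rested on few cells. A single cell accounted for 27.2% of primary UMIs in WT and 90.9% in twi, and without the cell of most primary UMIs in each library the ratio was 0.00598. Without myeloid and progenitor-like cells that held 3 or more B or T marker UMIs, it was 0.202. This count was not scaled to depth, so it cannot tell doublets with a lymphocyte from deep cells. The WT cell with the most primary UMIs, of 38432 UMIs, had 8 B marker UMIs and was left out. The median in WT B-like cells was 49. B markers summed to 230.1 CPM in progenitor-like cells and 210.5 CPM in WT neutrophil-like cells, and their part in the result was not tested. Outside the 10 cells, primary transcripts stood at 34.9 CPM in WT and 3.56 CPM in twi. In B-like and T-like cells together they stood at 26.5 CPM (median depth 2082 UMIs) and 0.673 CPM (median depth 2940.5 UMIs).

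**Figure D2:**
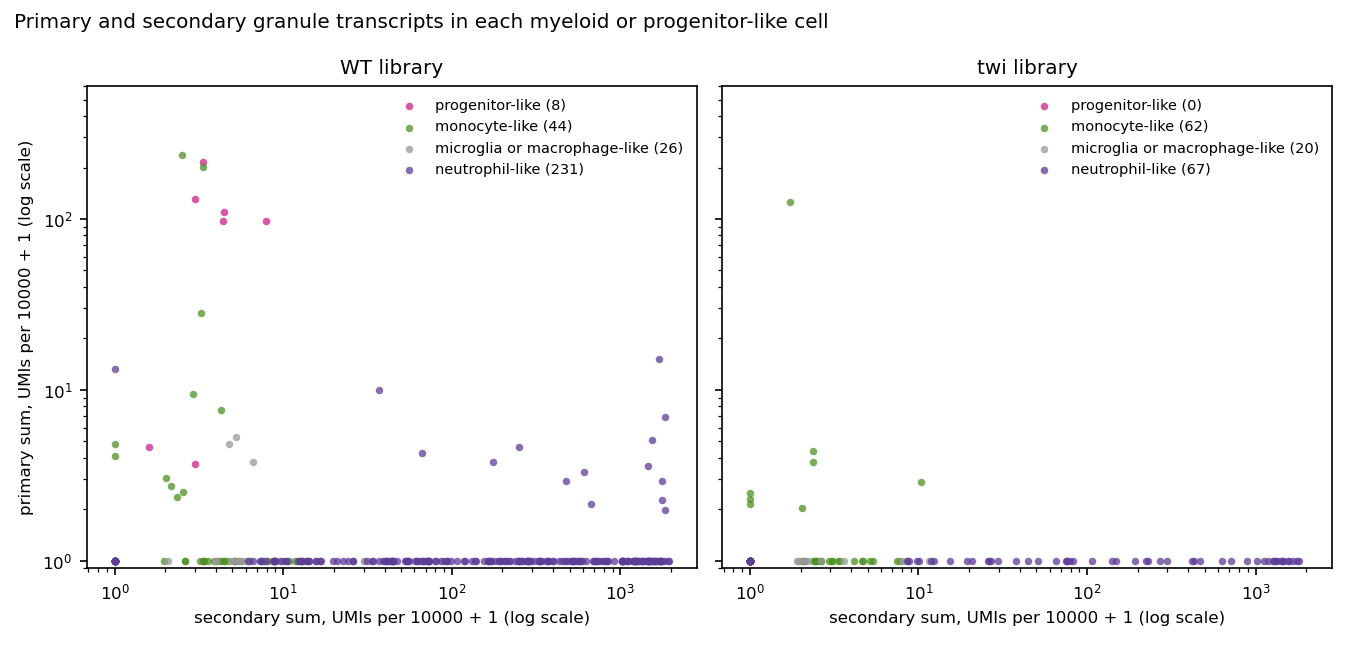
Primary granule UMIs (y axis) against secondary granule UMIs (x axis), both per 10000 UMIs plus 1 on log scales, for each progenitor-like and myeloid cell of the WT (left) and twi (right) libraries, coloured by class with the number of cells. The 10 cells rich in primary transcripts lie at low secondary levels, and neutrophil-like cells run along the x axis.

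The secondary granule genes were the main granule transcripts of the neutrophil-like cells, and for 3 of the 4 the interval of the ratio between libraries included 1. *Ngp*, a neutrophilic granule protein related to the cathelicidins and cystatins, had 24789 UMIs (35982 CPM) in WT and 7796 UMIs (36159 CPM) in twi, a ratio of 1.005 (interval 0.980 to 1.031). *Camp*, the gene of the antimicrobial peptide cathelicidin, had 21383 UMIs (31038 CPM) and 5723 UMIs (26544 CPM), a ratio of 0.855 (interval 0.831 to 0.881). *Camp* was the secondary gene whose interval lay below 1. *Lcn2*, the gene of the siderophore-binding lipocalin-2, had 10098 and 10204 CPM, a ratio of 1.010 (interval 0.963 to 1.060). *Ltf*, the gene of the iron-binding lactoferrin, had 8761 and 8905 CPM, a ratio of 1.016 (interval 0.965 to 1.070). The 4 genes together had 85879 and 81812 CPM, a ratio of 0.953 (interval 0.937 to 0.969).

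These sums weigh each cell by its depth. With every neutrophil-like cell weighted equally, the secondary ratio was 0.772, and with each cell thinned to 1000 UMIs it was 0.693 (interval 0.664 to 0.723), which left out 32 WT cells and 1 twi cell of lower depth. The cells left out were mostly from the neutrophil cluster led by *Il1b*, the gene of interleukin-1β, which had few secondary transcripts and kept 27 of 49 WT and 19 of 20 twi cells, so the thinned values compare other mixes of clusters than the sums do. The shares of cells with a UMI differed in the same direction. *Camp* was seen in 75.8% of WT and 49.3% of twi neutrophil-like cells (78.4% and 45.5% thinned), *Ngp* in 80.1% and 64.2% (83.9% and 62.1% thinned), *Ltf* in 59.7% and 43.3% (58.3% and 39.4% thinned), and *Lcn2* in 86.1% and 71.6% (89.95% and 72.7% thinned). The share was lower in twi for all 4 genes, with *Camp* the furthest apart. The median depth of the cells was 2402 UMIs in WT and 2179 in twi. Among B-like cells (median depths 2005 and 2211.5 UMIs), in which any granule transcript counts as free RNA, the shares were 18.9% and 2.33% for *Camp*, 31.7% and 16.3% for *Ngp*, 10.97% and 5.23% for *Ltf*, and 8.14% and 5.81% for *Lcn2*.

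Secondary transcripts in cells that should lack them stood higher in the WT library, in which neutrophil-like cells were also more frequent. The secondary sum stood at 374.7 CPM in WT and 117 CPM in twi B-like cells and at 305.7 and 90.9 CPM in T-like cells. *Ngp* and *Camp* UMIs stood in a ratio of 1.16 in WT and 1.36 in twi neutrophil-like cells. In B-like cells the ratio was 1.79 (interval 1.43 to 2.25) and 7.25 (interval 2.55 to 28.4), the latter on 4 UMIs of *Camp*. In T-like cells it was 1.23 (interval 0.911 to 1.66) in WT, which included the value of the neutrophil-like cells, and 1.964 (interval 1.41 to 2.76) in twi. A cell was called above background for secondary genes only with more UMIs than 99% of the B-like and T-like cells of its library. This was over 4 UMIs in WT and over 2 in twi, a count not scaled to depth. By this limit 75.8% of WT (175 cells) and 64.2% of twi (43 cells) neutrophil-like cells were above background, a ratio of 0.847 (interval 0.698 to 1.028). This interval included 1, while that of the ratio thinned to 1000 UMIs, 0.826 (interval 0.697 to 0.978), and that of cells chosen by a marker gate without clusters, 0.816 (interval 0.669 to 0.995), did not.

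The tertiary granule genes were lower in level and more evenly spread over cells. *Mmp8*, the gene of neutrophil collagenase, had 1244 UMIs (1806 CPM) in WT and 397 UMIs (1841 CPM) in twi, a ratio of 1.020 (interval 0.909 to 1.143). *Mmp9*, the gene of gelatinase B, had 1203 UMIs (1746 CPM) and 313 UMIs (1452 CPM), a ratio of 0.831 (interval 0.732 to 0.942). Together they had 3552 and 3293 CPM, a ratio of 0.927 (interval 0.852 to 1.008). *Mmp8* was seen in 78.8% of WT and 70.1% of twi cells (72.4% and 59.1% thinned) and *Mmp9* in 88.3% and 86.6% (77.4% and 63.6% thinned). In B-like cells the shares were 1.59% and 0% for *Mmp8*, where 0 of 172 twi cells allows up to 1.74%, and 2.12% and 0.581% for *Mmp9*. Of the WT tertiary UMIs, 52 cells held 50%, while 22 cells held 50% of the secondary and 3 cells 50% of the primary UMIs. In twi these numbers were 17, 6 and 1 cells.

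The neutrophil-like cells fell into 3 clusters that differed in granule transcripts, named here by their leading genes. The first was led by *Chil3*, a chitinase-like protein of immature neutrophils, with 53 WT and 15 twi cells. The second was led by *Retnlg*, a resistin-like gene of mature neutrophils, with 129 and 32 cells. The third was led by *Il1b*, with 49 and 20 cells. They made up 22.9%, 55.8% and 21.2% of WT and 22.4%, 47.8% and 29.9% of twi neutrophil-like cells. Their median depths differed, at 4549, 2435 and 1048 UMIs in WT and 6502, 2302 and 1178.5 UMIs in twi. The 10 granule genes did not enter the clustering, but genes that vary with them did, so the clusters are a description and not a test of an order.

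Secondary transcripts were concentrated in the Chil3-led cluster, at 151404 CPM in WT and 142765 CPM in twi, or 75.6% and 87.6% of the secondary UMIs of neutrophil-like cells. The level per cell ran from 671.5 to 1945 UMIs per 10000 in WT, with a median of 1481, and from 716 to 1821 in twi, with a median of 1423. The ranges of the libraries overlapped almost fully. The ratio of the sum was 0.943 (interval 0.926 to 0.960), but the genes differed. By gene it was 0.839 (interval 0.813 to 0.865) for *Camp* and 0.979 (interval 0.952 to 1.006) for *Ngp*. For *Lcn2* it was 1.049 (interval 0.990 to 1.110) and for *Ltf* 1.083 (interval 1.024 to 1.146). *Mki67*, a gene of dividing cells, was seen at 54.2 and 46.2 CPM in this cluster, on 16 and 5 UMIs over all neutrophil-like cells. Other cycling genes differed in direction. *Top2a* stood at 54.2 and 129.3 CPM here, *Ube2c* at 40.6 and 120.1 and *Cdk1* at 37.2 and 92.4. *Tuba1b* and *Hmgb2* were slightly higher in twi, and *H2afz*, *Stmn1*, *Birc5* and *Tubb5* lower. *Cebpe*, the gene of C/EBPε, stood at 603 and 637 CPM.

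In the Retnlg-led cluster the secondary sum was lower in twi than in WT. It stood at 42399 CPM in WT against 27029 CPM in twi, a ratio of 0.637 (interval 0.609 to 0.667). Per cell it ran from 0 to 1364 UMIs per 10000 in WT, with a median of 246.4, and from 0 to 1348 in twi, with a median of 76.59. Both libraries spanned nearly the same range, and the twi cells sat lower within it. By gene, the ratio was 0.502 for *Ltf*, 0.513 for *Camp*, 0.677 for *Ngp* and 0.861 for *Lcn2*. The value for the sum moved with the processing. It was 0.863 without the Harmony correction, 0.554 for a pair of random seeds that gave 2 neutrophil clusters instead of 3, 0.569 thinned, and 0.507 without the cell of most secondary UMIs in each library. It stayed below 1 under the 15 alternatives run.

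In the Il1b-led cluster secondary transcripts were low. The sum was 81 UMIs (1477 CPM) in WT and 13 UMIs (479.4 CPM) in twi, a ratio of 0.325 (interval 0.166 to 0.587). Only 3 of 49 WT and 1 of 20 twi cells were above the secondary background, a count not scaled to depth. These cells were shallow, with medians of 1048 and 1178.5 UMIs against 2082 and 2940.5 in B-like and T-like cells together. Per UMI, the sum stood above the 374.7 and 117 CPM of B-like cells. Thinned, 70.4% of WT and 31.6% of twi cells had a secondary UMI, against 33.5% and 10.6% of B-like cells. In B-like cells, where the sum counts as free RNA, its ratio was 0.312 (interval 0.230 to 0.417). The part of free RNA in the difference within this cluster was not tested. *Camp* had 12 UMIs in WT and 0 in twi (interval up to 136 CPM). *Lcn2* made up most of what was left, with 820.7 and 405.6 CPM.

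Tertiary transcripts followed another order over the clusters. They were highest in the Retnlg-led cluster, with 5326 and 4812 CPM, a ratio of 0.904 (interval 0.807 to 1.009), and this cluster held 73.7% and 54.4% of the tertiary UMIs. Here *Mmp8* had a ratio of 1.09 and *Mmp9* of 0.719. In the Chil3-led cluster the sum was 1706 CPM in WT and 2651 CPM in twi, a ratio of 1.55 (interval 1.34 to 1.80). Both genes were higher in twi there, with ratios of 1.46 for *Mmp8* and 1.69 for *Mmp9*. The median per cell was 13.18 UMIs per 10000 in WT and 31.96 in twi. The sum per cell ran from 0 to 113 in WT and from 0.753 to 51.2 in twi, so the twi cells lay within the WT range. Without Harmony the ratio was 1.23, and it stayed above 1 under the 15 alternatives run. In the Il1b-led cluster the sum was 2535 and 1364 CPM, a ratio of 0.538 (interval 0.364 to 0.778), with *Mmp8* at 893.6 and 258.1 CPM and *Mmp9* at 1641 and 1106 CPM. In these cells tertiary UMIs outnumbered secondary ones in both libraries.

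**Figure D3:**
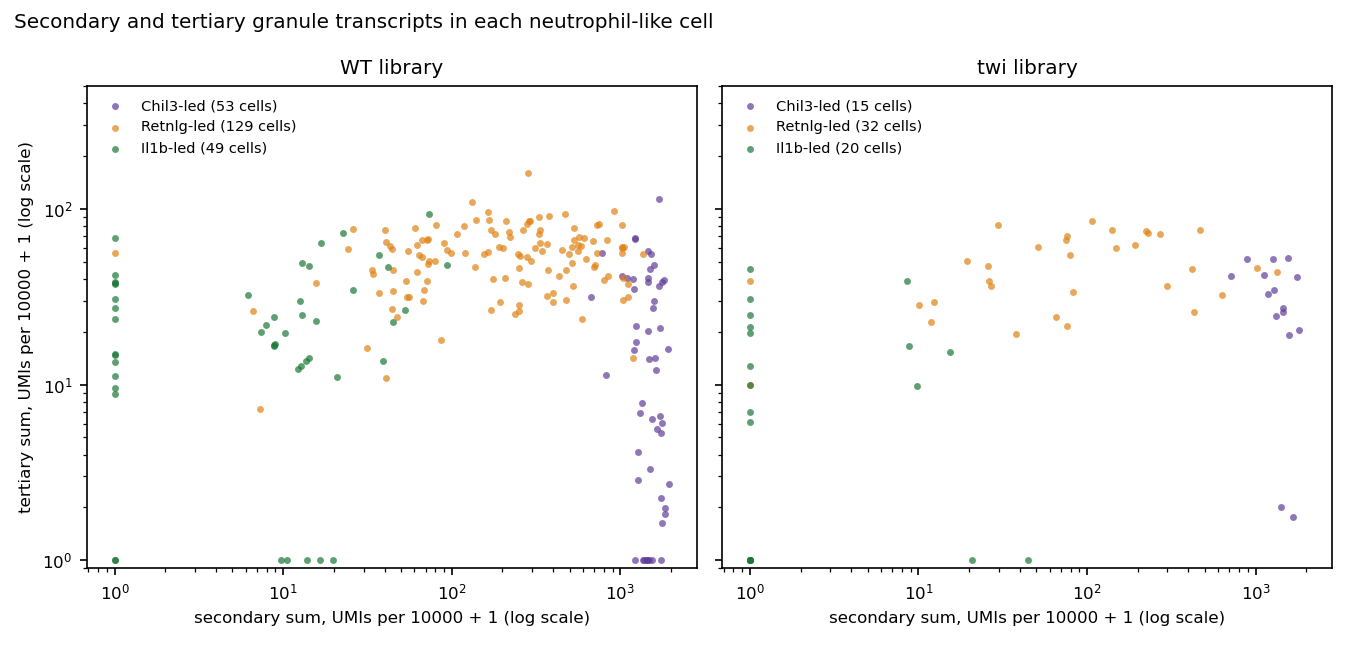
Tertiary (y axis) against secondary (x axis) granule UMIs, both per 10000 UMIs plus 1 on log scales, in each neutrophil-like cell of the WT (left) and twi (right) libraries, coloured by cluster. Chil3-led cells lie at the highest secondary level (medians 1481 and 1423), and Il1b-led cells lie at or near 0 secondary UMIs. Retnlg-led cells spread over the secondary axis. Their tertiary level ran from 6.27 to 158.3 in WT and from 8.92 to 84.5 in twi (medians 54.98 and 44.93).

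**Figure D4:**
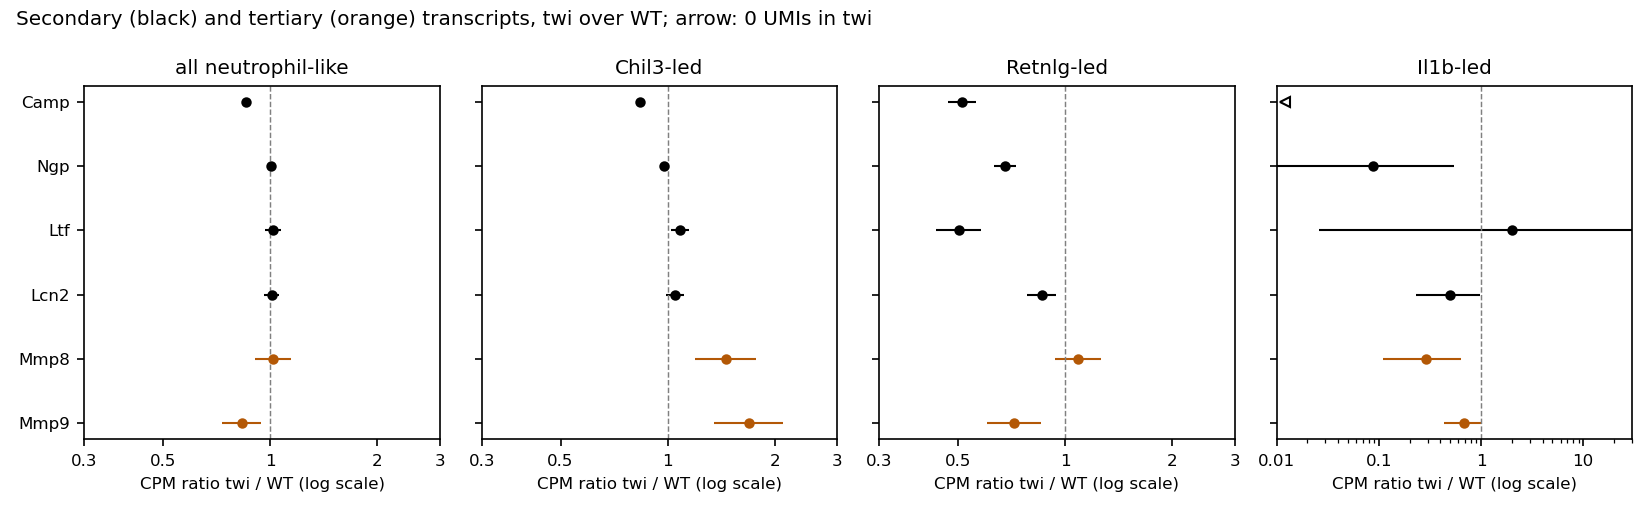
Ratio of CPM, twi over WT (x axis, log scale, wider in the last panel), with exact conditional intervals for counting error only, for each secondary (black) and tertiary (orange) gene in all neutrophil-like cells and in each cluster. Over all neutrophil-like cells the ratios lie between 0.831 and 1.020, while within clusters the tertiary ratios lie above 1 in Chil3-led cells and the secondary ratios below 1 in Retnlg-led cells.

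Secondary and tertiary transcripts were mostly seen in the same cells. At least 1 UMI of both was seen in 87.0% of WT (201 of 231) and 73.1% of twi (49 of 67) neutrophil-like cells, a ratio of 0.840 (interval 0.721 to 0.980). Thinned to 1000 UMIs, the shares were 80.9% and 66.7%. Among cells with a Y transcript and no *Xist*, the direction turned, to 1.13, on 61 WT and 6 twi cells. Above background, 68.8% of WT (159 cells) and 59.7% of twi (40 cells) had both, 16.0% (37 cells) and 20.9% (14 cells) had tertiary transcripts alone, and 8.23% and 14.9% had neither. In the remainder secondary transcripts stood without tertiary ones, together with primary ones in 3 WT cells. For tertiary transcripts alone the intervals were 11.5 to 21.4% in WT and 11.9 to 32.6% in twi, which overlapped.

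Within the cells, the secondary genes followed each other closely. Over 199 WT and 66 twi neutrophil-like cells thinned to 1000 UMIs, Spearman's rho of *Camp* was 0.907 and 0.908 with *Ngp*, 0.860 and 0.893 with *Ltf*, and 0.804 and 0.845 with *Lcn2*. *Mmp8* and *Mmp9* were more loosely tied, at 0.309 and 0.381. Across the stages, the secondary and tertiary sums gave -0.20 in WT and 0.36 in twi. By gene, *Camp* gave -0.32 and 0.0587 with *Mmp9* and -0.08 and 0.32 with *Mmp8*, and *Lcn2* gave -0.21 and 0.23 with *Mmp9* and 0.0039 and 0.42 with *Mmp8*. Each of these values was higher in twi than in WT. The thinned cells included 27 Il1b-led cells in WT and 19 in twi, so the libraries were compared over other mixes of clusters. Values within a cluster were not computed. All rho values are descriptions over cells that share a library, and cells are not replicates.

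Tertiary transcripts were also seen outside neutrophil-like cells. In WT, microglia or macrophage-like cells had 52 UMIs, B-like cells 25 and monocyte-like cells 24, or 614.3, 20.2 and 84.8 CPM, and in twi monocyte-like cells had 54 UMIs (145.8 CPM) and T-like cells 16 (6.33 CPM). In monocyte-like cells nearly all of them were *Mmp8*, which had 23 UMIs in 12 of 44 WT cells (81.3 CPM) and 51 UMIs in 16 of 62 twi cells (137.7 CPM), a ratio of 1.69 (interval 1.02 to 2.91), and *Mmp9* had 1 and 3 UMIs. The shares of cells with *Mmp8* were 27.3% and 25.8% (4.55% and 12.9% thinned), against 1.59% and 0% of B-like cells. UMIs of *Mmp9* over those of *Mmp8* stood at 0.0435 (interval 0.00106 to 0.268) in WT and 0.0588 (interval 0.0117 to 0.182) in twi monocyte-like cells, and at 0.967 (interval 0.893 to 1.05) and 0.788 (interval 0.678 to 0.917) in neutrophil-like cells. The proportion of *Mmp9* to *Mmp8* was thus lower in monocyte-like than in neutrophil-like cells of both libraries. The 12 WT cells with *Mmp8* had 26 secondary UMIs, or 314.7 CPM, and 1 of them had *Mmp9*, while the 16 twi cells had 17 secondary UMIs, or 149.1 CPM, and 0 had *Mmp9*. In WT microglia or macrophage-like cells, *Mmp8* had 34 UMIs in 5 of 26 cells, 4 of which also had *Mmp9*. A single cell held 110 of 160 secondary and 23 of 52 tertiary UMIs of these cells beside 645 UMIs of *S100a8*, a neutrophil gene, and without it 29 tertiary UMIs (367.7 CPM) and 50 secondary UMIs (633.99 CPM) were left. In twi, 0 of 20 such cells had a tertiary UMI, which is compatible with up to 15%.

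Other genes of granule formation and neutrophil maturation were counted in neutrophil-like cells by list, with 1.5 times as the limit. Of 3054 genes with at least 20 UMIs over both libraries, 11.7% were higher and 15.7% lower in twi by 1.5 times or more. Among the 6 granule genes that had 20 UMIs, all secondary or tertiary, 0 were higher and 0 lower, with a median log2 ratio of 0.01 against 0.06 over all genes. Each of the 4 primary genes had fewer than 20 UMIs in these cells and was not measured in this way.

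Of 14 other secondary granule genes measured, 0 were higher and 2 lower, beside 11.7% and 15.7% of all genes. *Fcnb*, the gene of ficolin B, an early secondary granule protein, was 201.8 CPM in WT (139 UMIs) and 27.83 CPM in twi (6 UMIs), a ratio of 0.138 (interval 0.0498 to 0.308). Of the WT UMIs, 15, 30 and 31 were in the 3 WT neutrophil-like cells with the most primary UMIs. The ratio thus rested in part on few cells, which its interval does not cover. *Ceacam1*, an adhesion receptor, had 63 and 12 UMIs and a ratio of 0.609, with an interval of 0.299 to 1.14 that included 1. *Chil3*, by contrast, had a ratio of 1.10. Of 9 other tertiary or secretory granule genes, 0 were higher and 1 lower, beside 11.7% and 15.7% of all genes. It was *Cr1l*, a complement regulator, at 0.492 on 39 and 6 UMIs (interval 0.170 to 1.17, which included 1). Of 6 other azurophil or progenitor genes, 2 were higher and 1 lower, beside 11.7% and 15.7% of all genes. *Srgn*, the proteoglycan serglycin that packs granule proteases, was higher at 1.61 (interval 1.40 to 1.84). *Srgn* stood at 4049 and 6859 CPM in Il1b-led and at 209.9 and 277.1 CPM in Chil3-led cells. The part of the cluster mix in its ratio was not tested. *Nkg7* was past the limit at 1.997 on 16 and 10 UMIs (interval 0.810 to 4.68), and *Hsp90b1*, a chaperone of the endoplasmic reticulum, at 0.596 on 59 and 11 UMIs (interval 0.282 to 1.14), and both intervals included 1.

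Of 9 inhibitors of granule proteases measured, 4 were higher and 0 lower, beside 11.7% and 15.7% of all genes, with a median log2 ratio of 0.47. All 4 were cystatins, which inhibit cysteine proteases: *Stfa3* at 3.36, *Stfa2* at 2.02, *Cstb* at 1.99 and *Stfa1* at 1.51. *Stfa1*, *Stfa2* and *Cstb* stood highest in the Il1b-led cluster. In the Retnlg-led cluster *Cstb* stood at 94.5 and 87.3 CPM and *Stfa1* at 1373 and 1421. There *Stfa2*, at 256.9 and 511.2, and *Stfa3*, at 56.1 and 224.4, were higher in twi. The part of the cluster mix in these ratios was not tested. The stefin A genes are close copies of each other, so their reads may have been split between them. The serine protease inhibitors *Slpi* and *Serpinb1a*, which act on elastase, proteinase 3 and cathepsin G, had ratios of 1.04 and 0.964.

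Of 16 mature neutrophil genes measured, 4 were higher and 0 lower, beside 11.7% and 15.7% of all genes. *Il1b* stood at 695.3 CPM in WT and 1739 CPM in twi, a ratio of 2.50, and *Ccrl2*, a chemerin-binding receptor, at 53.7 and 250.5 CPM, a ratio of 4.66. *Clec4d*, a C-type lectin, had a ratio of 1.58 and *Il1r2*, the interleukin-1 decoy receptor, of 1.52. All 4 stood highest in the Il1b-led cluster, which made up 21.2% of WT and 29.9% of twi neutrophil-like cells. Within it, *Il1b* stood at 6748 and 10731 CPM, *Ccrl2* at 492.4 and 1217, *Clec4d* at 1094 and 1180, and *Il1r2* at 1058 and 1512. Other genes of the list went both ways in this cluster. *Retnlg* stood at 27922 and 8334 CPM, *S100a8* at 110501 and 73088 and *Ptgs2* at 583.6 and 331.9, lower in twi. *G0s2*, at 6164 and 7928, and *Cxcr2*, at 875.4 and 1291, were higher. The part of the cluster mix in the ratios was not tested. Of 7 transcription factors of granulocyte stages, 0 were higher and 1 lower, beside 11.7% and 15.7% of all genes. *Runx1* was past the lower limit, at 0.456 on 28 and 4 UMIs (interval 0.116 to 1.30, which included 1). *Cebpe* had a ratio of 1.13 (interval 0.879 to 1.45). Of 10 cycling genes, 3 were higher and 0 lower, beside 11.7% and 15.7% of all genes. They were *Ube2c* at 2.97 (interval 1.28 to 6.81), *Cdk1* at 2.90 (interval 1.11 to 7.53) and *Top2a* at 2.35 (interval 1.09 to 4.95). Each rested on few UMIs and stood highest in the Chil3-led cluster.

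**Figure D5:**
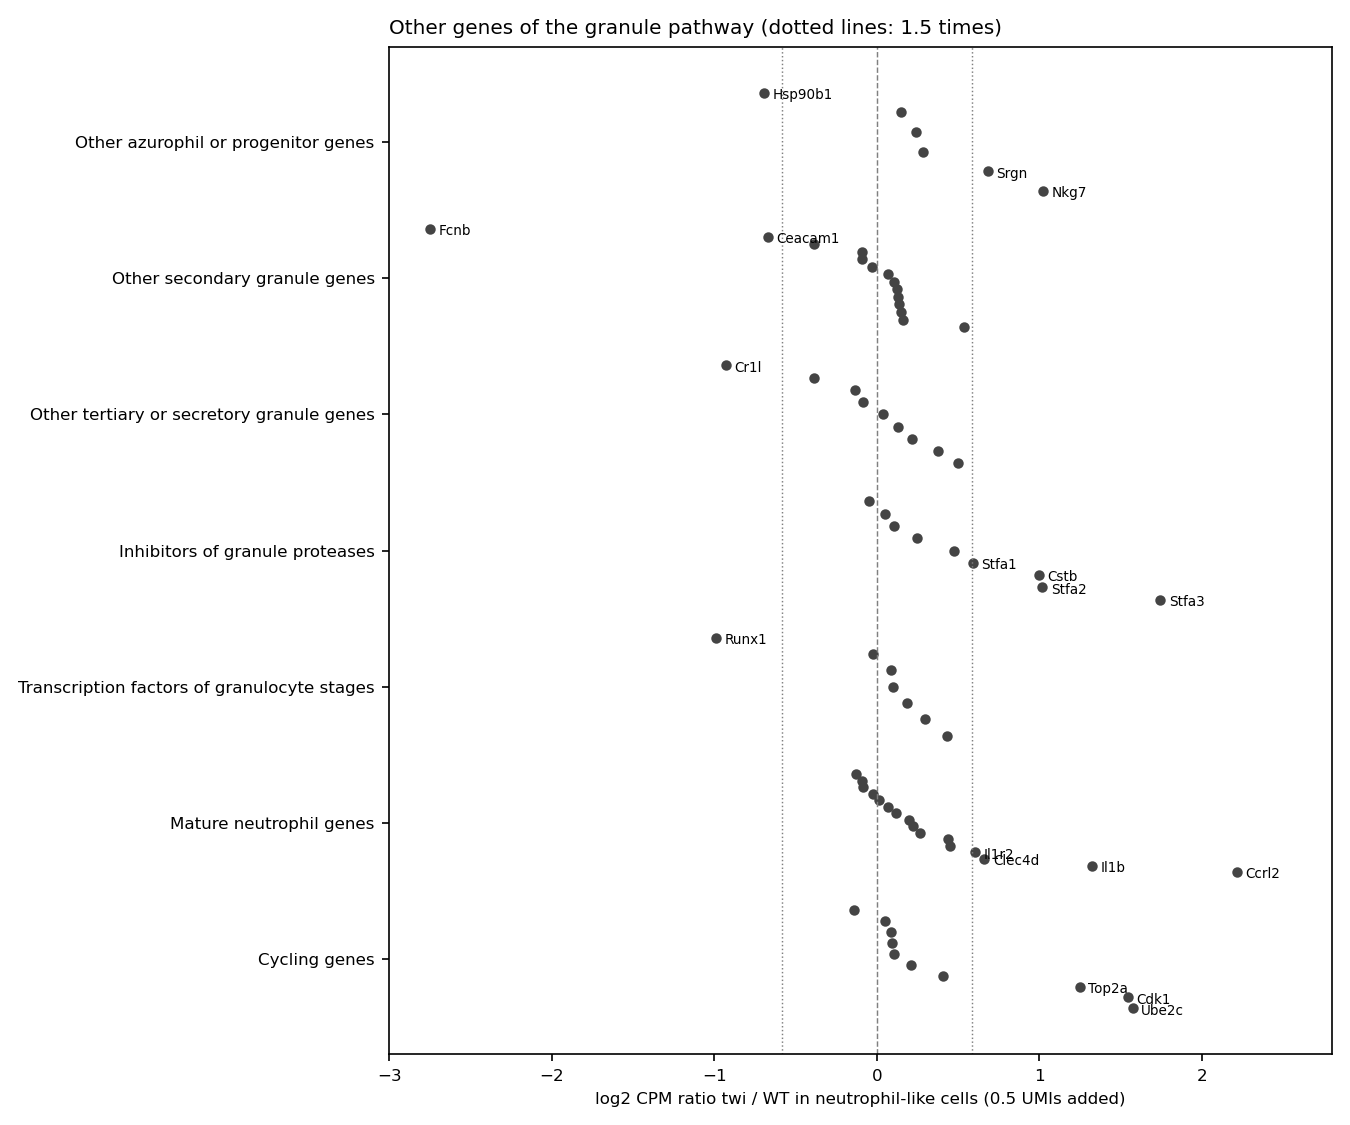
Log2 ratio of CPM, twi over WT, in neutrophil-like cells (x axis, 0.5 UMIs added) for each measured gene of 7 lists (y axis), with genes past 1.5 times named. Most genes lie near 0, *Fcnb* lies furthest to the left and *Ccrl2* furthest to the right.

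The genes whose level was most like each stage were found over 27 sums of cells by cluster and library. Pearson's r of log2(CPM + 10) was used, as a description. Most of the sums were of other classes, so for secondary and tertiary genes r largely sets neutrophil-like cells apart from the rest. *S100a8*, *S100a9*, *Retnlg* and *Cebpe* were also among the markers that named the neutrophil-like cells. Their high values were thus built in and do not show a match to a stage. The twi Chil3-led cluster, with 15 cells, was under the minimum for a sum and was left out. It held 87.6% of the secondary UMIs of twi neutrophil-like cells. The secondary sum was most like *Itgb2l* (0.95), *Ly6g* (0.92), *1700047M11Rik* (0.91), *Ppp1r42* (0.91) and *Cebpe* (0.91). The tertiary sum was most like *S100a8* (0.97), *S100a9* (0.97), *Retnlg* (0.97), *Ceacam10* (0.96) and *Fpr2* (0.96). The primary sum was most like *Serpinb10* (0.88), *Adgre4* (0.87), *F10* (0.87), *AI839979* (0.86) and *Cd209a* (0.86). The 8 progenitor-like cells were not included, as they were under the minimum of 20 cells for a sum. Among the sums used, the primary level was highest in the larger monocyte-like cluster, at 4121 CPM in WT and 549.5 CPM in twi. Few of its cells held most of these UMIs, so the genes listed may be those of this cluster.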

How the data were processed

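CD45+ brain cells of 1 pooled library per genotype were analysed. The deposited files hold the authors' UMI counts as whole numbers for each gene in each called cell, without normalization. They hold somewhat fewer barcodes than the cells per sample named in the paper. The submitters' processing notes name Cell Ranger 2.1.1 and mm10, and the paper's methods name STAR. The paper's methods give 30 min of collagenase D, the labels a longer digestion with collagenase and dispase. The labels also name CD4+ cells at the loading step.

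Members and lists were chosen with earlier results of these data known. Barcodes with at most 15% mitochondrial UMIs were kept. From 2000 variable genes, with the 10 granule genes left out, 20 principal components were corrected for library by an own implementation of Harmony, not checked against the published one, and clustered with Leiden (scanpy 1.11.5, leidenalg 0.10.2, resolution 1, 15 neighbours). A cluster was named from at least 3 markers that were 2 times as high as in other cells and seen in 20% of its cells. Marker symbols *Ighm*, *Trac*, *Trbc1* and *Trbc2* and list genes *Chi3l1*, *Fcn1* and *Cebpd* were not used here. No doublet caller was run. Instead, myeloid and progenitor-like cells with 3 or more B or T marker UMIs were left out as an alternative, a count not scaled to depth.

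Summed UMIs are given as CPM. Intervals are exact Poisson for sums, exact conditional for ratios of sums and Clopper-Pearson for shares (scipy 1.17.1), and a log-scale (Katz) approximation for ratios of shares. Shares were also computed with cells thinned to 1000 UMIs. The steps were tested on simulated counts. Named genes are the 10 members, list genes past 1.5 times with at least 20 UMIs and a few beside them for contrast, and the 5 genes most like each stage. Positions are from GENCODE vM21 (GRCm38).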

Additional observations from a re-analysis of the deposited data

Results flagged for a closer look

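Among the 7 WT barcodes removed for over 15% mitochondrial UMIs, primary granule transcripts stood at 6677 CPM (interval 5030 to 8691), above the 808.8 CPM of the WT cells kept. All 55 of these UMIs were in 1 barcode, with 2336 UMIs of which 17.3% were mitochondrial. It had 23 UMIs of *Mpo*, 15 of *Elane*, 12 of *Prtn3* and 5 of *Ctsg*, beside 1 of *Lcn2*. The 13 twi barcodes removed had 0 primary UMIs (interval up to 225.8 CPM).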

How the results depend on the processing

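No paired analysis was possible because each genotype had a single pooled library. All values are ratios, twi over WT, and depth limits them most for primary genes and for the 67 twi neutrophil-like cells, whose number was the same in every clustering run. The summed primary ratio of neutrophil-like cells, set against the floor, was 0.342, and 0.452 without the cell that held most UMIs of the stage in each library (the top cell). Thinning, subtracting free RNA and cells with Y transcripts gave no value for it. The secondary ratio stayed below 1 under all 17 alternatives, with 0.913 for a marker gate, 0.693 thinned, 0.910 without the top cell, 0.902 without cells of B or T markers and 0.873 in cells with Y transcripts. The tertiary ratio was 0.833 thinned and 1.10 in cells with Y transcripts, where the share with both stages turned to 1.13. The share above the secondary background lay between 0.816 and 1.02. Alternatives chosen after seeing the data follow. With every cell weighted equally, the secondary ratio was 0.772, the tertiary 0.814 and the primary ratio over all cells 0.104. That primary ratio was 0.0916 thinned, 0.00598 without the top cell and 0.202 without myeloid and progenitor-like cells of B or T markers. In the Retnlg-led cluster, the secondary ratio was 0.863 without Harmony, 0.569 thinned, 0.507 without the top cell, 0.585 without cells of B or T markers and 0.864 in cells with Y transcripts. It was 0.547 with at most 10% mitochondrial UMIs and 0.554 for Leiden seeds 4 and 5. These settings gave 2 neutrophil clusters instead of 3, so the cluster led by *Retnlg* came from another division of the cells. In the Chil3-led cluster, the tertiary ratio was 1.23 without Harmony and 2.08 in cells with Y transcripts. The causes of these moves were not tested.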
